A study of Drosophila melanogaster with 4 samples.

Results

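The middle of chromosome arm 2L of Drosophila melanogaster is described here by its clusters of acetylated lysine 9 of histone H3 (H3K9ac). A cluster is a region of significant enrichment as the authors called it in a ChIP-seq library. The interval runs from position 2000001 to 21011544 of 2L in FlyBase release 5, which is the arm without its outermost 2 Mb at each end. A cluster was counted as a member when its midpoint lay in this interval of 19.01 Mb. Replicate 1 gave 971 members among its 6545 clusters, and replicate 2 gave 1120 among 7629. The telomere lies at the low positions and the centromere at the high positions of 2L.

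Larvae at the third instar were profiled for H3K9ac, from the wild-type strain Oregon-R that is named Oregon-R-modENCODE in the labels. The study has 2 ChIP libraries and 2 input libraries of the same strain, stage and genotype, and the labels name no treatment and no sex. The lists used are those of the 2 ChIP libraries and 1 list of the replicate set. Larval tissue was homogenised and fixed with formaldehyde before immunoprecipitation, so every value is an average over many cell types, and fewer marked cells and less of the mark per cell cannot be told apart.

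H3K9ac is placed on histones by acetyltransferases that work with transcription, and it is known as a mark of active promoters and of the beginning of transcribed genes. Its neighbours on a chromosome are unmarked intergenic sequence, silent genes and repressed domains, which in flies can hold many genes that are used in single tissues. In a compact genome such as that of the fly, active genes often sit side by side and share short upstream sequences. Silent and gene-poor stretches, by contrast, usually lack the mark.

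The clusters were not assigned to genes, since the gene table at hand follows release 6 and its positions were not carried over to release 5. For the same reason no base sequence is printed, and regions are named by position on 2L. Each cluster has a score given by the authors, whose scale no source used here states. It behaves as a log2 value: of the 780 differences among the 40 most frequent scores of a list, 735 in replicate 1 and 769 in replicate 2 matched the log2 of some whole-number ratio, against at most 1 under a natural or base 10 logarithm. A match meant a ratio with a denominator up to 5000 within a relative tolerance of 1e-11. Scores are compared as differences and not as ratios, and they also serve to describe, rank or filter clusters. Since no reads are counted in the lists, library depth is unknown. Whether separate larval collections stand behind the 2 replicates is not stated in the labels, so their spread may be technical. With 2 libraries of 1 group an exact two-sided test cannot give a p below 0.5, so values are given per library with no test.

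H3K9ac clusters covered 16.0% of the 2L middle in replicate 1 and 16.6% in replicate 2 (16.3% ± 0.398, SD, n = 2). The covered sequence came to 3.04 Mb and 3.15 Mb, and 2.50 Mb of it was covered in both libraries. Replicate 2 had the larger number of clusters, 58.9 per Mb against 51.1 in replicate 1. Its clusters were shorter, with a median of 2239 bp (quartiles 1728 and 3308 bp) against 2476 bp (quartiles 1969 and 3715 bp). The median score was 0.70 in replicate 1 and 0.62 in replicate 2. The libraries thus differed more in the number and length of their clusters than in the sequence these covered.

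At the limits of the interval, the first member on the telomere side began at 2036970 in replicate 1 and at 2026530 in replicate 2, with scores of 0.89 and 0.63. The last cluster left out on that side ended at 1990889 and at 1989613, with scores of 1.03 and 1.02. On the centromere side the last members, at 20990070 to 20991951 and at 21009760 to 21011179, scored 0.44 and 0.49. The first clusters beyond them, at 21012999 and 21014970, scored 0.46 and 0.37. The clusters just outside on the telomere side were stronger than the first members inside, and those around the centromere-side limit were all weak.

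Strongly marked and nearly unmarked sequence both recurred along the interval. In these results, unmarked means without a cluster in the replicate lists considered, which does not show that H3K9ac is absent. In 100 kb bins, of which the interval holds 190, the mean covered share of the 2 libraries had a median of 15.0%, quartiles of 5.15% and 25.01%, and a maximum of 49.9%. A bin is called dense here at a mean share of 25% or more and sparse under 5%. There were 48 dense bins (25.3%), 47 sparse bins (24.7%) and 95 in between. The dense bins held 52.0% of the covered sequence in replicate 1 and 50.5% in replicate 2. The sparse bins held 2.13% and 2.37%. In 21 bins neither library had any covered sequence, and 20 bins had none in the replicate set.

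**Figure D1:**
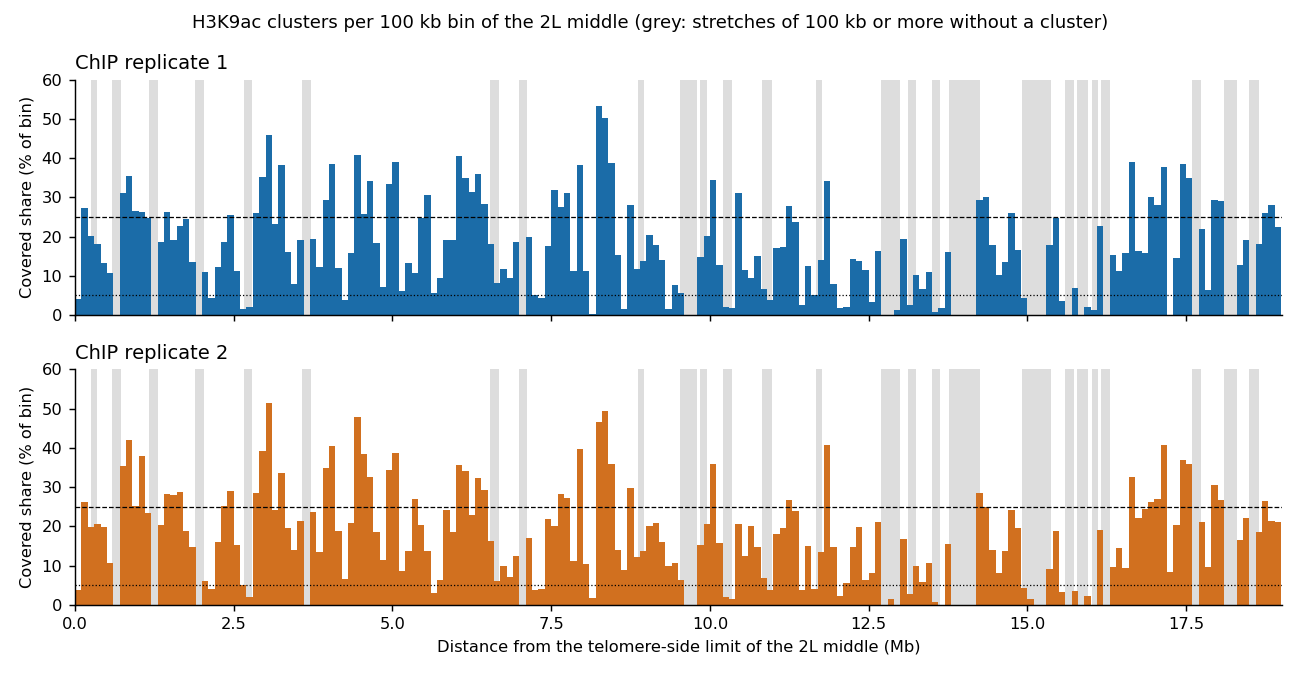
Share of each 100 kb bin of the 2L middle covered by H3K9ac clusters (vertical axis, percent) against the distance from the telomere-side limit (horizontal axis, Mb), in ChIP replicate 1 (top) and ChIP replicate 2 (bottom). The dashed line marks 25%, the dotted line 5%, and grey bands mark the 28 stretches of 100 kb or more without a cluster in either replicate. The same bins are high and low in both libraries, with a peak near 50% in the densest bin and a wide empty band of 478 kb in the centromere-side part.

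Bins kept their class from library to library. Of the 49 bins that were dense in replicate 1, 42 were dense in replicate 2 as well, 7 were in between and 0 were sparse. Their covered share in replicate 2 had a median of 32.5% and ranged from 13.6% to 51.5%. Of the 48 bins that were sparse in replicate 1, 41 were sparse in replicate 2, 7 were in between and 0 were dense, with a median share of 0.302% in replicate 2. Across the 190 bins the shares of the 2 libraries had a Pearson's r of 0.944 and a Spearman's rho of 0.943, a description of bins that share their libraries and neighbours.

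Dense and sparse bins both recurred along the arm, and neighbours of the same class outnumbered dense bins directly beside sparse ones. Of the 189 pairs of neighbouring bins, 73 (38.6%) lay on opposite sides of the median, against 50.6% on 2R, 42.6% on 3L, 45.8% on 3R and 37.2% on X, each by its own median. Dense bins formed 26 runs, of which 14 were single bins and the longest held 5. Sparse bins formed 29 runs, of which 17 were single bins and the longest held 4. A dense bin stood directly beside a sparse one at 9 places, whereas 22 pairs of neighbours were both dense and 18 both sparse. Read along the arm with the bins in between left out, the series of dense and sparse bins switched 35 times in 94 steps.

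The 4 steepest changes between neighbouring bins were seen in both libraries. At 10200000 the covered share went from 0.316% to 53.2% in replicate 1 and from 1.69% to 46.6% in replicate 2, which leads into the densest bin of the interval. At 19600000 it went from 34.9% to 0% in replicate 1 and from 35.9% to 0% in replicate 2. Next came 19200000, where it went from 37.9% to 0% in replicate 1 and from 40.7% to 8.23% in replicate 2, and 2700000, where it went from 0% to 31.2% and from 0% to 35.3%. Such edges were a minority, since 32 of 189 steps exceeded 20 percentage points and the median step was 8.89 points.

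The runs of neighbouring bins above the median were longest from 7800001 to 8600000 (8 bins, mean covered share 28.4% in replicate 1 and 26.6% in replicate 2). Next came those from 4800001 to 5400000 (6 bins, 30.8% and 32.7%) and from 18600001 to 19200000 (6 bins, 27.9% and 28.8%). Below the median, 3 runs of 6 bins stood out by length. They ran from 11200001 to 11800000 (4.80% in replicate 1 and 7.17% in replicate 2), from 15100001 to 15700000 (5.45% and 4.995%) and from 17500001 to 18100000 (2.30% and 1.47%). Runs of both kinds had a median of 2 bins, and 12 of the 74 runs held 5 bins or more, so long blocks were exceptions.

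Neighbouring bins were weakly alike in covered share, and most of this likeness was gone at 200 kb. The correlation of the covered share between bins 100 kb apart was 0.327 in replicate 1 and 0.396 in replicate 2. At 200 kb it was 0.0433 and 0.0876, and at 1000 kb it was -0.0287 and -0.0378. At 500 kb it was 0.171 and 0.215, above the values at 200 kb. In the other arm middles the value at 100 kb ran from 0.0183 on 2R to 0.287 on X in replicate 1, and from 0.109 on 2R to 0.321 on X in replicate 2. These are descriptions over 170 to 238 pairs of bins of the same libraries, and the differences between arms were not tested.

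In windows of 1 Mb the covered share of the 2L middle ranged from 4.65% to 24.96%, with a median of 17.1%. By the mean of both libraries the densest window, from 6000001, had 22.9% in replicate 1 and 26.98% in replicate 2, and held 67 and 86 clusters. In replicate 1 alone the window from 8000001 was denser, with 23.7% against 20.6% in replicate 2. The windows from 5000001 (21.1% and 23.6%) and from 10000001 (22.4% and 22.3%) came next, and their order lies within the spread of the libraries. The sparsest window, from 17000001, had 5.50% in replicate 1 and 3.80% in replicate 2, and held 18 and 16. It was followed by the windows from 15000001 (6.82% and 6.24%) and from 14000001 (6.45% and 7.92%), which also overlap in their values. Of the 19 windows, 13 held at least 1 dense and at least 1 sparse bin. The limits of 25% and 5% lie close to the quartiles of these same bins, 25.01% and 5.15%. Both classes are therefore frequent by choice of limit, and nothing on mixing is read from this count.

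In 3 equal parts of the interval, the share covered by H3K9ac fell from the telomere side to the centromere side. In 1 Mb windows the fall was not steady. Cover was lowest in the windows from 17000001, 15000001 and 14000001, with means of 4.65%, 6.53% and 7.19%. The last 3 windows, from 18000001, 19000001 and 20000001, had means of 16.3%, 22.1% and 15.4%. Divided into 3 parts of 6.34 Mb, the covered share was 20.6% ± 1.23 (SD, n = 2) on the telomere side, 15.6% ± 0.306 in the centre and 12.7% ± 0.341 on the centromere side. Replicate 1 gave 19.7%, 15.4% and 12.9%, and replicate 2 gave 21.5%, 15.8% and 12.4%, so the order was the same in both and the libraries of different parts did not overlap. Clusters fell from 61.1 to 49.7 and 42.4 per Mb in replicate 1 and from 73.4 to 56.2 and 47.2 in replicate 2. Cluster length and score hardly moved. The median length was 2508, 2464 and 2394 bp in replicate 1 and 2282, 2211 and 2214 bp in replicate 2, and the median scores were 0.70, 0.73 and 0.65 in replicate 1 and 0.63, 0.62 and 0.61 in replicate 2.

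Sequence in long unmarked stretches increased from part to part, while the libraries differed on whether the rest of the sequence was marked evenly. Stretches of 40 kb or more without a cluster in either library took up 29.8% of the telomere-side part, 41.4% of the central part and 53.2% of the centromere-side part. Outside these stretches the covered share was 28.1%, 26.2% and 27.6% in replicate 1 and 30.6%, 26.96% and 26.5% in replicate 2. The telomere-side value exceeded the centromere-side one by 0.540 points in replicate 1 and by 4.05 points in replicate 2, against 6.81 and 9.03 points over all sequence. The direction of this smaller difference changed when replicate 1 alone set both the stretches and the share, where it was -1.45 points, while replicate 2 alone gave 4.08 points. Leaving out sequence that holds no cluster raises every share by construction, so the values only describe the rest of each part.

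Between the same parts of the other arm middles, the covered share fell less or rose. The difference of telomere-side less centromere-side part was 1.71 points in replicate 1 and 3.00 in replicate 2 on 3R, and it was negative in both libraries on 2R (-2.48 and -2.47), 3L (-1.15 and -1.14) and X (-1.39 and -2.59). On 2L it was larger than on each of these in both libraries. The 5 arms of a library are not replicates, and the difference between arms was not tested.

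**Figure D2:**
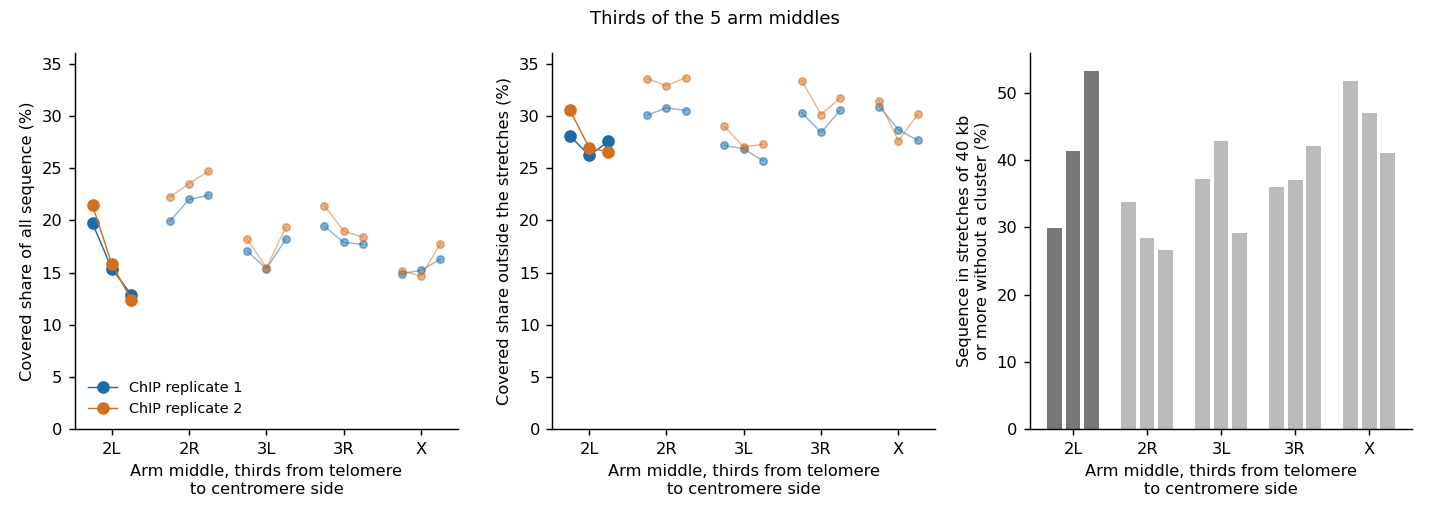
Covered share of all sequence (left, percent), covered share outside stretches of 40 kb or more without a cluster (centre, percent) and sequence in such stretches (right, percent), in 3 equal parts of each of the 5 arm middles, ordered from telomere to centromere side. Points are the 2 ChIP replicates and bars are the stretches common to both; on 2L the left panel falls from 20.6% to 12.7% on average while the right panel rises from 29.8% to 53.2%.

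Set beside the other arm middles as a whole, the 2L middle was among the less covered. Its covered share less that of the pooled middles of 2R, 3L and 3R was -2.72 points in replicate 1 and -3.47 points in replicate 2. The covered share was 21.4% and 23.5% on 2R, 16.9% and 17.7% on 3L, 18.3% and 19.6% on 3R, and 15.5% and 15.9% on X, in replicates 1 and 2. The 2L values were below those of 3L in each library and above those of X. Sparse bins made up 24.7% of the bins on 2L, against 8.77% on 2R, 16.6% on 3L, 18.8% on 3R and 21.7% on X. Dense bins made up 25.3%, against 40.9%, 24.9%, 29.3% and 21.7%. On 2L 18 pairs of neighbouring bins were both sparse, against 1 on 2R, 10 on 3L, 10 on 3R and 8 on X. These arm values were not tested against each other.

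The spacing of the clusters was wide in range. The median gap from the end of a cluster to the start of the next was 4681 bp in replicate 1 and 4274 bp in replicate 2 (4477 ± 287 bp, SD, n = 2), and the mean gaps were 16406 and 14152 bp. Gaps under 2 kb were 29.9% of all gaps in replicate 1 and 29.7% in replicate 2. Gaps of 40 kb or more were 10.3% and 7.77% of the gaps, 100 and 87 in number, but they held 59.7% and 53.3% of the sequence between clusters. Few long gaps thus held most of the unmarked sequence, and many short ones hardly any.

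**Figure D3:**
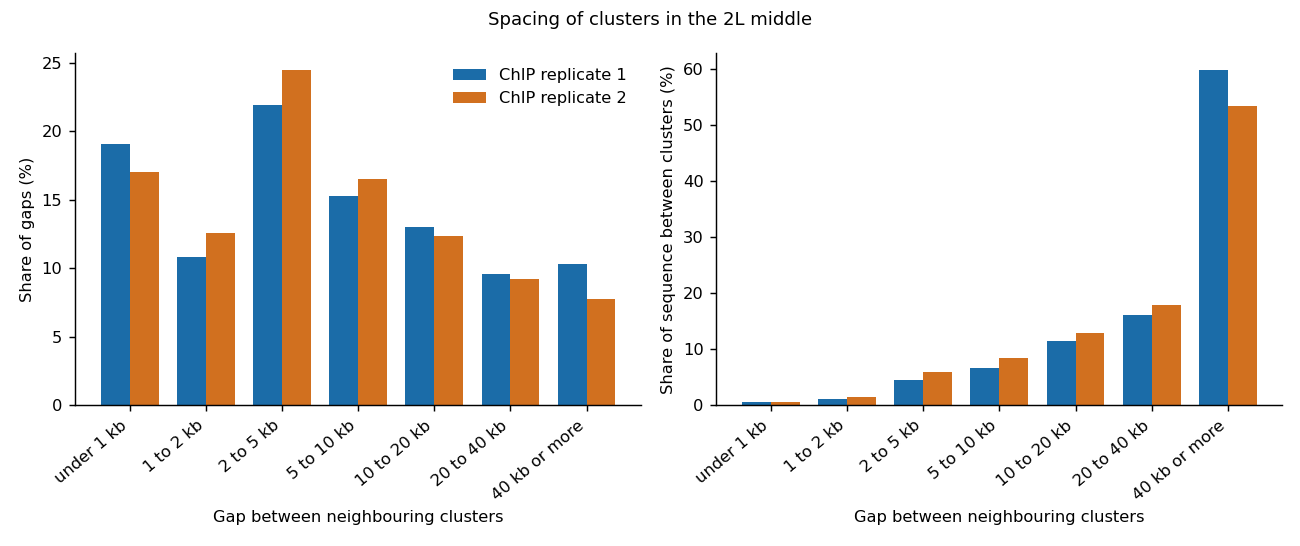
Share of the gaps between neighbouring clusters of the 2L middle (left, percent of 970 gaps in replicate 1 and 1119 in replicate 2) and share of the sequence between clusters (right, percent) by class of gap length, for ChIP replicate 1 (blue) and ChIP replicate 2 (orange). Gaps of 40 kb or more are 10.3% and 7.77% of the gaps and hold 59.7% and 53.3% of the sequence.

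Clusters separated by gaps under 2 kb form groups. Of the clusters, 48.5% in replicate 1 and 49.1% in replicate 2 had such a close neighbour. They formed 181 and 218 groups of 2 or more, of which 10 in each library held 5 or more clusters. By the sum of both libraries, the groups with most clusters lay side by side, although in replicate 1 no group exceeded 5. The first ran from 6453987 to 6483373 in replicate 1, with 5 clusters over 29.4 kb, and from 6451820 to 6483737 in replicate 2, with 7 clusters over 31.9 kb. The second ran from 6487456 to 6505242 in replicate 1 (5 clusters, 17.8 kb) and from 6487473 to 6514303 in replicate 2 (7 clusters, 26.8 kb). A group at 4441652 to 4466491 held 5 clusters over 24.8 kb in replicate 1, and its counterpart at 4441679 to 4466570 in replicate 2 held 5 over 24.9 kb. A group at 13364430 to 13388947 also held 5 clusters in each library.

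Clusters far from any neighbour were fewer and had lower median scores. Those with no other cluster within 10 kb were 123 in replicate 1 and 113 in replicate 2, with median scores of 0.56 and 0.58. Clusters with a neighbour within 2 kb had medians of 0.71 and 0.65. Those with the nearest neighbour 2 to 10 kb away had 0.76 and 0.61, so in replicate 1 the score did not fall steadily with distance. In replicate 1, 77.2% of the isolated clusters overlapped a cluster of replicate 2, against 86.0% of those with a close neighbour. In replicate 2 the shares were 67.3% and 83.1%. For the class from 2 to 10 kb they were 86.7% in replicate 1 and 72.2% in replicate 2.

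Clusters up to 2 kb made up 26.3% of the clusters in replicate 1 and 37.1% in replicate 2, and those from 2 to 5 kb 61.9% and 54.0%. The class from 5 to 10 kb counted 99 members in replicate 1 and 88 in replicate 2, and took 21.1% and 17.8% of the clustered sequence. Above 10 kb there were 16 and 11 clusters, with 6.25% and 4.36% of it. The libraries differed in number chiefly in the shortest class, 255 against 416, while the class from 2 to 5 kb held 601 and 605.

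Classes of longer clusters had higher median scores, and within classes the relation was clearest over 2 to 3 kb. The highest score of a cluster up to 2 kb was 0.64 in replicate 1 and 0.74 in replicate 2. Median scores in replicates 1 and 2 were 0.44 and 0.47 up to 2 kb, 0.71 and 0.70 over 2 to 3 kb, and 1.11 and 1.10 over 3 kb. Among clusters over 2 to 3 kb, 94 of 346 in replicate 1 and 88 of 371 in replicate 2 scored above 1, up to 2.62 and 2.52. Among those over 3 kb, 222 of 370 and 198 of 333 did. Over all clusters Spearman's rho between length and score was 0.749 in replicate 1 and 0.767 in replicate 2. Among clusters over 2 to 3 kb it was 0.553 and 0.470, among those over 3 kb 0.159 and 0.1195, and among those up to 2 kb -0.0623 and -0.0549. The shortest cluster was 1301 bp in both libraries. The way the caller sets a cluster's ends is not given in the sources used here, and its part in this relation was not tested.

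**Figure D4:**
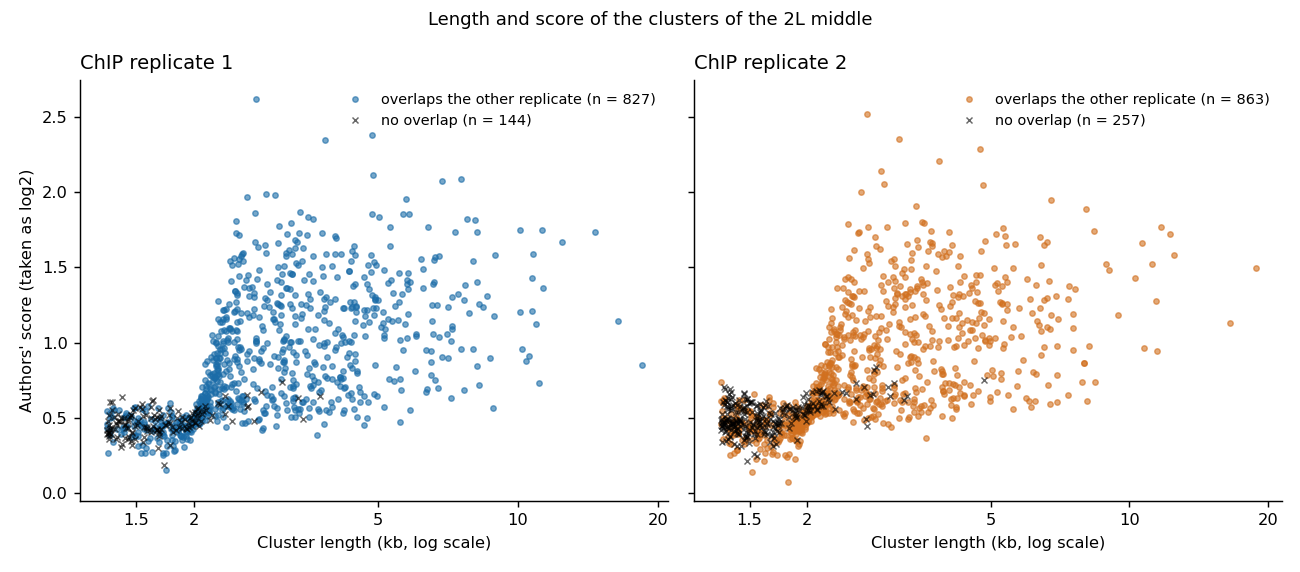
Score given by the authors (vertical axis, taken as log2) against cluster length (horizontal axis, kb, log scale) for the 971 clusters of ChIP replicate 1 (left) and the 1120 of ChIP replicate 2 (right). Each point is a cluster, and crosses are clusters without overlap in the other replicate (144 and 257). The highest scores up to 2 kb are 0.64 and 0.74, and the crosses gather among short clusters of low score.

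The strongest H3K9ac region of the 2L middle lay from 19007484 to 19010180, 2697 bp long and thus far from the longest, with a score of 2.62 in replicate 1 and 2.52 in replicate 2. By the mean of both libraries it was followed by 8040251 to 8044979 (4729 bp, 2.38 and 2.28), 9965373 to 9969162 (3790 bp, 2.34 and 2.20), 7825167 to 7829972 (4806 bp, 2.11 and 2.05) and 13393147 to 13396005 (2859 bp, 1.99 and 2.14). Each was 1 cluster in each library. The first 3 of these 5 kept their order in both libraries, and the last pair changed places. Replicate 2 alone had a cluster of comparable score at 10199792 to 10202950, with 2.35. There replicate 1 had 1 cluster of 8171 bp, from 10199685 to 10207855 with a score of 1.73, while replicate 2 had a second cluster from 10203161 to 10207848 with 1.27.

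Long domains were seen in both libraries at 8 places, counted as regions over 10 kb covered in both replicates. By this count, which ends a region at any break in either library, the longest ran from 11986601 to 12002918, 16.3 kb. Its scores were 1.14 in replicate 1 and 1.13 in replicate 2. It was 1 cluster of 16450 bp in replicate 1 and of 16530 bp in replicate 2, and 1 cluster of 16599 bp in the replicate set. The next ran from 2744384 to 2756642 (12.3 kb, scores 1.67 and 1.72), from 5973160 to 5984857 (11.7 kb, 1.73 and 1.77) and from 10421380 to 10432687 (11.3 kb, 1.36 and 1.27). These 4 scored much alike in the 2 libraries.

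The other long domains were 9887202 to 9898369 (11.2 kb, scores 1.75 in replicate 1 and 1.52 in replicate 2), 4964758 to 4975510 (10.8 kb, 1.59 and 1.496), 5087250 to 5097853 (10.6 kb) and 4451300 to 4461417 (10.1 kb, 1.74 and 1.66). The domain at 5087250 was 1 cluster in replicate 2 with a score of 0.97, and 2 clusters in replicate 1 that touch at 5090667, with scores of 0.60 and 1.09. The domain at 4964758 went on to 4983543 in replicate 2, where the cluster was 18786 bp long. In replicate 1, 2 clusters with scores of 1.59 and 1.31 covered 99.8% of that length. The replicate set had 1 cluster of 19475 bp there, so this place was longer than 16.3 kb when the break in replicate 1 is passed over. Of the 8 domains, 6 had their midpoint in a dense bin, where 46.0% of all clusters of replicate 1 and 43.75% of those of replicate 2 lay. A domain of this length adds to the coverage that classes its own bin, so nothing is read from this count. The shortest of them was 10118 bp long, and the longest region below the limit was 9409 bp.

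Not every cluster over 10 kb met another of that length in the other library. Reaching 10 kb again is a stricter demand than an overlap of 1 bp, so length and presence are not compared. Of the 16 clusters over 10 kb in replicate 1, 9 met a cluster over 10 kb in replicate 2, and of the 11 in replicate 2, 9 met one in replicate 1. All of them overlapped the other library, which covered 78.5% to 100% of their length in replicate 1 and 91.7% to 100% in replicate 2. The longest cluster of replicate 1, from 8155626 to 8174088 with 18.5 kb and a score of 0.85, was met by 4 clusters of replicate 2 that covered 86.6% of it. In replicate 2 the cluster from 19571367 to 19582824 (11.5 kb, score 0.94) was met by 3 clusters of replicate 1 that covered 97.1%. Over all members, 6.80% of the clusters of replicate 1 overlapped several clusters of replicate 2, and 2.86% of those of replicate 2 overlapped several of replicate 1.

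Long stretches without a cluster of either replicate took up 41.5% of the 2L middle. There were 82 stretches of 40 kb or more without a cluster in either library, with a median of 76.6 kb and 7.88 Mb in all. The shortest was 40.2 kb and the longest just below the limit was 39.9 kb. Of these, 28 reached 100 kb, and together they held 4.54 Mb. Among the arm middles, the stretches held 29.5% of 2R, 36.5% of 3L, 38.4% of 3R and 46.5% of X.

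Only 4 stretches exceeded 200 kb. The longest ran from 15771745 to 16249980, 478 kb. Its borders were nearly the same in the libraries taken alone, where it measured 478.2 kb in replicate 1 and 478.6 kb in replicate 2. The clusters beside it were weak on the telomere side, at 0.29 and 0.30 in replicates 1 and 2, and scored 0.71 and 0.37 on the centromere side.

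The second, from 17040918 to 17375775, measured 335 kb and was parted from a stretch of 128 kb, from 16911248 to 17039558, by 1 cluster. That cluster was listed in replicate 2 alone, from 17039559 to 17040917, with a score of 0.69. In replicate 1 the unmarked sequence therefore ran on for 465 kb, from 16911248 to 17376322. A second place of this kind lay from 14689761 to 14991997, which is 302 kb without a cluster in replicate 1. In replicate 2 it was cut by a cluster from 14808734 to 14810086 with a score of 0.66.

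The third stretch over 200 kb ran from 11528904 to 11802027 (273 kb) and the fourth from 20098070 to 20310516 (212 kb). The fourth had clusters in both libraries on either side, with scores of 0.78 and 0.63 on the left and 0.69 and 0.61 on the right in replicates 1 and 2. Next by length were 17778567 to 17962530 (184 kb), 14810087 to 14991997 (182 kb), 20487679 to 20643928 (156 kb) and 18159403 to 18310731 (151 kb). All 4 lay in the centromere-side part of the interval.

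The stretches of the telomere-side part that reached 100 kb began at 2244081 (108 kb), 2586282 (141 kb), 3171658 (129 kb), 3889683 (141 kb), 4658081 (136 kb) and 5580902 (139.5 kb). No stretch of this length was found from there up to 8538052, where 1 of 135 kb began. The central part went on with stretches at 8999037 (123 kb), 10860196 (105 kb), 11851525 (109 kb), 12209473 (142 kb), 12825220 (148 kb) and 13666976 (103 kb). Beside those already given, the centromere-side part held stretches at 14689761 (119 kb), 15115466 (139 kb), 15500779 (129 kb), 17591245 (149.7 kb), 18013447 (101 kb) and 19589533 (145 kb). The sequence from 5720405 to 8538051 was thus the longest without a stretch of 100 kb.

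Clusters that border the 82 stretches scored much like the others. Their median score was 0.66 in replicate 1 (145 clusters) and 0.63 in replicate 2 (148 clusters), against 0.71 and 0.62 for the remaining members. The median lengths were 2349 and 2232 bp against 2483 and 2244 bp. The mappable share of the unmarked sequence was not analysed here.

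All clusters scoring over 1 overlapped the other library, and weaker ones did so less often. Of the clusters in replicate 1, 827 (85.2%) overlapped replicate 2, and of those in replicate 2, 863 (77.1%) overlapped replicate 1. At scores over 1 and up to 1.5 all 229 clusters of replicate 1 and all 218 of replicate 2 had a partner, and over 1.5 all 87 and all 68 did. At scores from 0.5 to 1 the shares were 87.0% in replicate 1 and 75.7% in replicate 2, and up to 0.5 they were 61.6% and 57.0%. By length, 55.7% of the clusters up to 2 kb in replicate 1 and 49.0% in replicate 2 had a partner, against 94.8% and 92.6% from 2 to 5 kb and 100% above.

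Clusters without a partner were short, and they made up a larger share of the clusters in sparse bins than in dense ones. The 144 in replicate 1 had a median length of 1640 bp and a median score of 0.48, and the 257 in replicate 2 had medians of 1558 bp and 0.51. In replicate 1, 66.7% of them lay within 5 kb of a cluster of the other list, and in replicate 2 50.6% did. They made up 8.05% of the clusters in dense bins, 19.7% in those in between and 35.5% in sparse bins in replicate 1. In replicate 2 the shares were 12.7%, 29.8% and 48.7%. Sparse bins held only 31 and 39 clusters in all, and bins were classed by the same clusters.

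Among unmatched clusters of replicate 1 the top scores belonged to 8291998 to 8295090 (score 0.74), 8982804 to 8985593 (0.67) and 5287481 to 5290091 (0.65), all between 2 and 5 kb from the nearest cluster of replicate 2. In replicate 2 they belonged to 12082597 to 12085412 (0.84), 12624544 to 12627330 (0.82) and 12535860 to 12540696 (0.75). All 3 lie in the 1 Mb window from 12000001, and the second is 301 bp from the nearest cluster of replicate 1. Each of these unmatched clusters overlapped 1 cluster of the replicate set. So did most unmatched clusters, 99.3% of the 144 in replicate 1 and 88.7% of the 257 in replicate 2, so this does not set them apart.

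Where the clusters could be matched one to one, their scores were close. Over 711 pairs the score difference, replicate 1 less replicate 2, was 0.05 ± 0.15 (SD over pairs), and 438 pairs (61.6%) were higher in replicate 1. Pearson's r over the pairs was 0.931 and Spearman's rho 0.900. The starts differed by a median of 110 bp and the ends by 102 bp, and in 404 pairs (56.8%) both ends lay within 250 bp. Of the pairs, 41.1% were longer in replicate 2. Only 3 of the 711 pairs differed by more than 0.5.

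Several of the largest differences in favour of replicate 1 lay close together. The pairs at 10238488 (1.36 in replicate 1 and 0.70 in replicate 2), 5269866 (1.00 and 0.44), 10262236 (1.40 and 0.88), 10393592 (1.64 and 1.15) and 3655203 (0.97 and 0.50) led the list. Of these 5, 3 began within 10200001 to 10400000, the most densely covered place of the interval. In its first bin, to 10300000, replicate 1 had the higher score in 13 of 14 pairs, by 0.22 ± 0.24 on average (SD), and in its second bin all 11 of 11 were, by 0.26 ± 0.14. These bins were singled out after their values were seen. They were the 2 highest of the 78 bins with at least 5 pairs, whose median difference was 0.03. The covered shares there were 53.2% against 46.6% and 50.3% against 49.3%.

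In favour of replicate 2 the largest differences of matched pairs were smaller and scattered. The split region at 10199685 is not among them, since it has no one-to-one match. They were found at 13271549 (0.38 in replicate 1 and 0.79 in replicate 2), 4948175 (1.13 and 1.49), 6423471 (1.41 and 1.77), 17469959 (1.28 and 1.64) and 8825338 (0.91 and 1.25). Among bins of 5 or more pairs the lowest mean difference was -0.08, at 13300001 to 13400000.

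Agreement varied along the arm. Over the whole interval the Jaccard index, the sequence covered in both libraries over that covered in either, was 0.677. In the 1 Mb windows it ranged from 0.352 to 0.785 with a median of 0.663. The highest value was that of the window from 10000001, and the lowest that of the window from 14000001. In the latter 71.4% of the 28 clusters of replicate 1 and 46.3% of the 41 clusters of replicate 2 had a partner, their median scores were 0.50 and 0.52, and no cluster exceeded 5 kb in either library. The ratio of covered sequence of replicate 2 to replicate 1 was 1.23 there, the highest of all windows, and 0.691 in the sparsest window from 17000001, the lowest. It was above 1 in 10 of 19 windows. Paired scores were higher in replicate 1 in 17 of 19 windows, with means between -0.01 and 0.12. The Jaccard index was 0.674, 0.682 and 0.677 in the telomere-side, central and centromere-side parts. Across the 19 windows its correlation with the mean covered share was 0.612, a description of windows of the same libraries in which both measures rest on the same clusters. In the other arm middles the Jaccard index itself was 0.705 on 2R, 0.680 on 3L, 0.713 on 3R and 0.707 on X. Each was above the 0.677 of the 2L middle, and these differences were not tested.

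**Figure D5:**
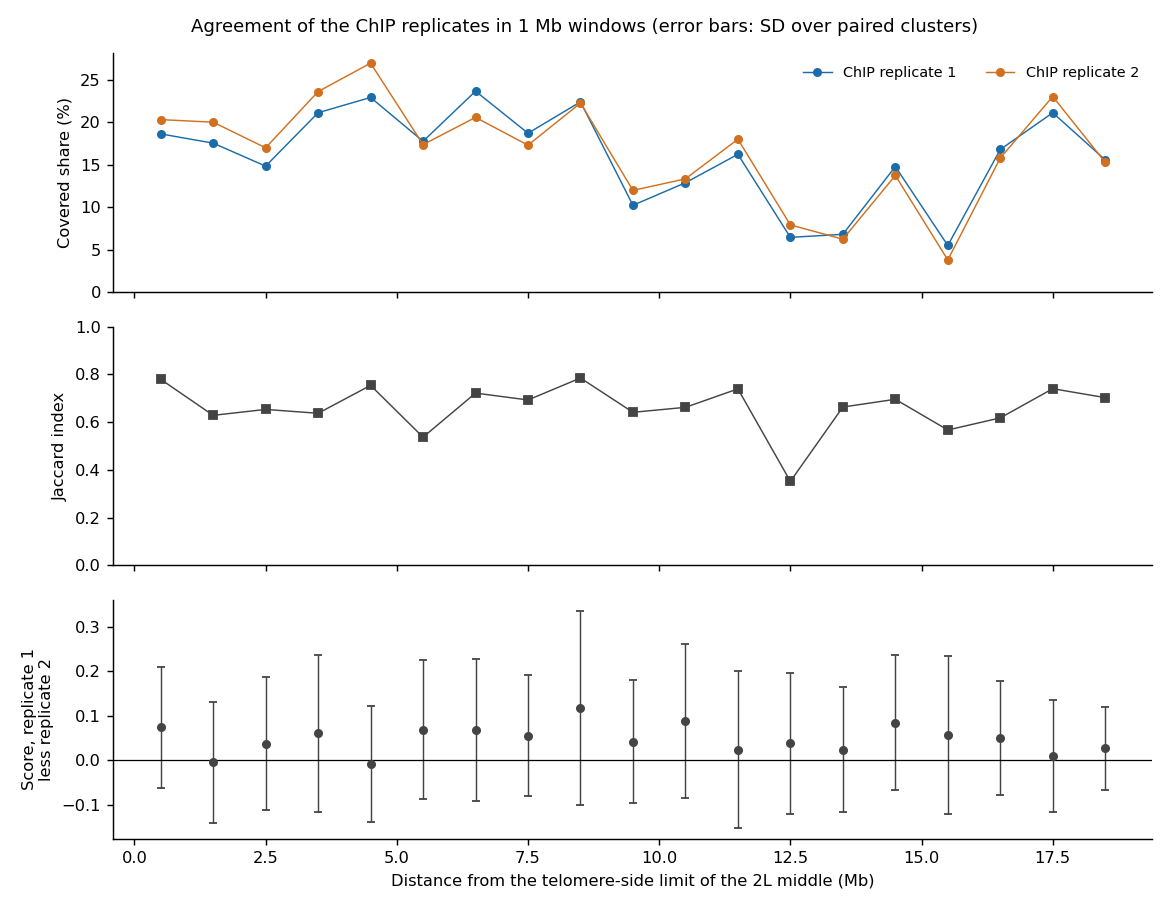
Covered share (top, percent), Jaccard index of the 2 ChIP replicates (middle) and mean score difference of paired clusters, replicate 1 less replicate 2 (bottom, error bars are SD over pairs), in the 19 windows of 1 Mb against the distance from the telomere-side limit (Mb). The index ranges from 0.352 to 0.785 with its low point at a sparsely covered window, and the mean score difference lies above 0 in 17 windows.

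In the 2L middle the replicate set listed 1566 clusters over 4.61 Mb, or 24.2% of it, with a median score of 0.40. It draws on the same libraries and is no independent evidence. Of its clusters, 771 (49.2%) overlapped both replicates; their medians were 0.74 in score and 3367 bp in length. A further 464 (29.6%) met no cluster of either replicate and had medians of 0.34 and 1247 bp. Of the 464, 324 (69.8%) lay in bins between the classes, 111 (23.9%) in dense and 29 (6.25%) in sparse ones. Over all clusters of the set the shares were 59.4%, 35.95% and 4.66%. In the 82 unmarked stretches the set had 90 clusters, 11.4 per Mb against 133 per Mb elsewhere in the interval. In 43 of the stretches it had none. Of the 4 stretches over 200 kb, the one at 11528904 held 2 such clusters, with scores of 0.34 and 0.25, and the others held 0.

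The highest score of the set in this interval belonged to a cluster that neither replicate shared. It lay from 11316638 to 11317638, 1001 bp long, with a score of 3.08, above every score of the 2 replicates in the interval. It stood in the unmarked stretch from 11283378 to 11338705, and the nearest cluster was 33.3 kb away in replicate 1 and 21.1 kb away in replicate 2. The same score, equal within 1e-09, was given to 3 clusters of the set in all. The other two lie outside the interval, from 21653312 to 21654324 on 2L and from 6324106 to 6325106 on X. The next highest scores of the set, 2.55 and 2.32, belonged to clusters from 19007425 and from 8040234, at strong regions of both replicates named above.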

How the data were processed

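The deposited cluster lists of 2 ChIP libraries and of their replicate set were used, and the input libraries were not analysed here. Per the submitters' processing notes, Bowtie 0.12.7 was the aligner. Per the file headers, positions follow FlyBase release 5. No source used here names the peak caller, its threshold or the pairing with inputs. The score per cluster is the authors' own deposited value and served only to describe, rank or filter clusters.

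Positions were read as 1-based with both ends included. Clusters of 2 lists were matched at an overlap of at least 1 bp, and clusters that touch were joined before sequence was counted. The last 11544 bp of the interval were left out of the 100 kb bins. Regions to name were those over 10 kb and the 5 highest by mean score in both replicates, stretches of 100 kb or more, extreme 1 Mb windows, runs of bins, groups of clusters, and the highest unpaired and most different paired clusters. The interval, lists and limits were chosen with earlier results of these data known. No test was run. Alternatives changed the list, bin width and position, overlap, joining and the replicates used. Interval arithmetic was tested on simulated data. Python 3.11.15, numpy 2.4.6, pandas 2.3.3 and scipy 1.17.1 were used.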

Additional observations from a re-analysis of the deposited data

How the results depend on the processing

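No paired analysis was possible because both ChIP libraries belong to 1 group. With either replicate left out, the covered share ran from 16.0% to 16.6%, clusters from 51.1 to 58.9 per Mb, dense bins from 24.2% to 25.8%, sparse bins from 23.7% to 25.3%, switches across the median from 37.6% to 39.7%, the median gap from 4274 to 4680.5 bp, stretches of 40 kb or more from 87 to 101, and the difference from the other autosome arms from -3.47 to -2.72 points. The upper 50% of scores gave a covered share of 9.77%, 24.6 clusters per Mb, 10.5% dense and 44.2% sparse bins, 34.9% switches, a median gap of 9322 bp, an arm difference of -2.33 points, a Jaccard index of 0.749 and 88.3% of clusters with a partner. Keeping fewer clusters lowers coverage and lengthens gaps by construction. The replicate set gave a covered share of 24.2%, 82.4 clusters per Mb, 48.9% dense and 19.5% sparse bins and a median gap of 2575 bp. Dense bins were 21.1% at 200 kb and 26.8% at 50 kb. Sparse bins were 11.6% at 200 kb, 31.6% at 50 kb and 20.6% with bins shifted by 50 kb. Switches were 45.7%, 35.1% and 41.0% under the same settings. Joining clusters under 500 bp apart raised the median gap to 5399 bp and the regions over 10 kb covered in both libraries from 8 to 15. The replicate correlation across bins and the paired score difference moved little under the alternatives run. In alternatives added after seeing the data, the telomere-side less centromere-side share outside long unmarked stretches, 2.29 points on average, was -1.45 points without replicate 2, 4.08 without replicate 1, 3.94 with stretches of 20 kb or more and 0.875 with 80 kb or more; the cause was not tested. Leaving out a replicate could not be applied to values that need both lists. With depth unknown, an absent cluster does not show an absent mark.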
